A study of Homo sapiens and synthetic construct with 52 samples.

Results

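The guides against mitochondrial ribosomal proteins in a genome-wide CRISPR interference library were followed through survival and dasatinib screens in K562 cells, a chronic myelogenous leukemia line that carries the BCR-ABL1 fusion kinase. Members were all guide rows whose gene symbol is MRPL or MRPS followed by a digit, and this rule uses no measured value. It took 378 of the 103074 guides, 76 of the 18788 genes and 77 of the 20374 gene start sites. Of these start sites, 74 had 5 guides, MRPL49 had 4, and the start sites P1 and P2 of MRPL30 had 2 each. The large subunit accounts for 49 of the 76 genes and the small subunit for 26, and MRPS36 carries the symbol but its protein is assigned elsewhere.

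Every screen used K562 cells expressing dCas9-KRAB, a catalytically dead Cas9 fused to a repressor domain that lowers transcription from the promoter a guide targets. The line was a sorted pool rather than a clone, and transduced cells were selected with puromycin. The LGR library was cloned anew and the legacy library is the existing plasmid pool of the same guides. In the survival screens, the LGR library was kept at 1000-fold cell coverage (1 T0 and 3 Tf samples) or at 100-fold coverage (2 T0 and 4 Tf samples), and the cultures were maintained for 7 days. In the dasatinib screens, each library was held at 100-fold coverage, transduced once and then split. T0 samples (A and B) were collected 7 days after infection, and 2 cultures per library then received a single dose of 0.75 nM dasatinib, which inhibits BCR-ABL1 and SRC family kinases, and 2 received 0.01% DMSO. The drug or vehicle stayed on for 72 h, and cells were collected after 6 more days without it. Each plasmid library was sequenced as 1 sample. Because the cultures of a library came from 1 transduction, their p-values measure only the spread between splits. For the survival screens nothing states that the samples were separate transductions, and the study calls the replicates it compared at 100-fold technical. Their p-values may thus also measure only the spread between technical replicates.

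The mitochondrial ribosome translates the few messenger RNAs encoded by mitochondrial DNA, which specify core subunits of the respiratory chain and of ATP synthase. All of its proteins are encoded in the nucleus and imported. Some have counterparts in bacterial ribosomes, and others were added in the mitochondrial lineage and surround the shortened ribosomal RNA. The small subunit binds messenger RNA and decodes it, while the large subunit joins amino acids and releases the chain through an exit tunnel at the inner membrane.

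A CRISPR interference guide acts at the promoter, so promoters of members are shown first, namely the 5 lowest by mean phenotype over the growth comparisons and the one nearest 0, among members with 1 RefSeq start. The upstream 250 bases come from RefSeq (GRCh38.p14, 5′ to 3′ on the gene's strand). The lowest were MRPS17 (chr7:55951627-55951876, plus strand), MRPS21 (chr1:150293611-150293860, plus strand), MRPS9 (chr2:105037819-105038068, plus strand), MRPL22 (chr5:154940823-154941072, plus strand) and MRPL33 (chr2:27771469-27771718, plus strand), and the one nearest 0 was MRPL28 (chr16:370539-370788, minus strand). Capitals mark the NRF1 motif in MRPS9 and the ETS motif in MRPS21 and MRPL33. MRPS17 and MRPL22 hold none of the 3 motifs described next, and neither does MRPL28.
MRPS9: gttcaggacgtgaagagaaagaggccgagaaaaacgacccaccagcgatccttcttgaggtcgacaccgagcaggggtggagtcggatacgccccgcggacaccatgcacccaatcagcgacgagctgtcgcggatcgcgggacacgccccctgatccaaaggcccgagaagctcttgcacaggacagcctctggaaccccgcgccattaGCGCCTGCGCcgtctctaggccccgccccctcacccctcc
MRPS17: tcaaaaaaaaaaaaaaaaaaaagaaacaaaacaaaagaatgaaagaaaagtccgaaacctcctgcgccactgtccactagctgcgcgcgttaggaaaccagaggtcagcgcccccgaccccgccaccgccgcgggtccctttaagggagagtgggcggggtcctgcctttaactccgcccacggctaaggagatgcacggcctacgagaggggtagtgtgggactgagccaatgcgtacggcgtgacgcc
MRPS21: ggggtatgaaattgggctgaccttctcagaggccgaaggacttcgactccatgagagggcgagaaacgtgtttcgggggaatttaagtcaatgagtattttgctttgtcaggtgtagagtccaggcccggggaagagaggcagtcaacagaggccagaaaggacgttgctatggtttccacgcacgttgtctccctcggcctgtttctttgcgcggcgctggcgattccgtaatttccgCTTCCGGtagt
MRPL22: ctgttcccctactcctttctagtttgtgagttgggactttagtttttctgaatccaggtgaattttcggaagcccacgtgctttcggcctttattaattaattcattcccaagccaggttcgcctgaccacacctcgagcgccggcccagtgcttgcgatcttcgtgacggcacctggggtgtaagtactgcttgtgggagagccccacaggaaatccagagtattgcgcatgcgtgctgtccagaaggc
MRPL33: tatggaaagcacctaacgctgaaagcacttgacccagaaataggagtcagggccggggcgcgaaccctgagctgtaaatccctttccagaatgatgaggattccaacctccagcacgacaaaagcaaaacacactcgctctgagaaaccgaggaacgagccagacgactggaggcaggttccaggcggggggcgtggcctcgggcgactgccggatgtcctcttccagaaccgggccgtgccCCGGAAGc
MRPL28: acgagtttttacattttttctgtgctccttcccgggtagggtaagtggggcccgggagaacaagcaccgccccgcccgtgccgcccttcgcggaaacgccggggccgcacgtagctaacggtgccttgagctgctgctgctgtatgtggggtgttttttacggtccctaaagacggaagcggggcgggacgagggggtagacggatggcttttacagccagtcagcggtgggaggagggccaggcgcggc

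Of the 76 members, 68 matched a promoter entry, giving 84 windows of 300 bases. Motifs were searched on both strands. The NRF1 motif (GCGC, any base and TGCGC) was present in 9 of 84 member windows (10.7%) and in 5.78% of all 35116 windows. The ETS motif CCGGAAG was present in 32 member windows (38.1%) against 10.3% of all, and the YY1 motif AAGATGGCG in 13 (15.5%) against 1.75%. NRF1, ETS family factors and YY1 are regulators of nuclear genes for mitochondrial proteins. Among start sites with an ETS match, 16 of 30 were called lower in all 4 growth comparisons described below, and among those without one, 25 of 39. For NRF1 the counts were 7 of 9 with and 34 of 60 without a match, and for YY1 7 of 13 and 34 of 56. A match is a string in the sequence and not an occupied site, and none of these shares was tested.

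Totals per sample ranged from 15739255 to 170431221 counts. Member guides made up 0.308% of the counts in the LGR plasmid and 0.392% in the legacy plasmid. The share was 0.307% in the 1000-fold T0 and 0.225%, 0.225% and 0.226% in its Tf samples. At 100-fold it was 0.302% in both T0 samples and 0.217%, 0.214%, 0.186% and 0.188% in the Tf samples. The T0 samples of both survival screens thus lay above every Tf sample. In the LGR dasatinib screen the share was 0.288% and 0.287% at T0, 0.163% and 0.153% in DMSO, and 0.122% and 0.121% in dasatinib. In the legacy screen it was 0.367% and 0.361% at T0, 0.196% and 0.191% in DMSO, and 0.160% and 0.164% in dasatinib. In each library the 3 conditions did not overlap. Counts were lowest in the last step. The median member guide had 133 to 172 counts at T0, 51.5 to 60 in DMSO and 28.5 to 36 in dasatinib, and 7 to 21 member guides had 0 counts in each dasatinib sample.

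Gene phenotypes below are the signed mean of a gene's 3 strongest guides (log2 enrichment of CPM, which is a count scaled to its sample's total, relative to the median of the non-targeting guides), given ± SD over the final samples. Of the 1895 non-targeting guides, those with enough counts were used, from 1750 in legacy dasatinib to all 1895 in survival T0 against plasmid. Taking the strongest guides pulls this mean away from 0, and the SD leaves out the spread of the starting samples. Final samples enter as the mean of their log2 values, and starting samples as the log2 of their mean. This draws guides with few and variable counts in the final samples below 0. Members were called by a gene score, which multiplies the phenotype (in units of the non-targeting SD) by the −log10 of a Mann-Whitney p against the non-targeting guides, at an estimated false discovery rate of 0.05. Counts summed over a gene's guides were tested separately with edgeR.

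Before the growth period the members were near their plasmid levels in the survival screens. Between plasmid and survival T0, 0 of 77 start sites were called lower by the gene score, against 0.285% of all start sites. edgeR on summed counts also called 0 lower (1.24% of all). It gave 6 members an unadjusted p under 0.05 (2403 of 20374 over all start sites), and it called 3 of 378 member guides lower (0.788% of all guides). The median phenotype was −0.05 against 0.00 for all start sites. In the LGR dasatinib screen, 2 members (2.6%) were called lower at T0, a share below the 3.03% of all start sites, and the median was −0.18. They were MRPS14 (−1.19 ± 0.24, n = 2) and MRPS33 (−0.81 ± 0.13). Without LGR T0 A or T0 B, 0 and 1 members were called. In the legacy screen 6 members (7.79%) were called lower against 3.48% of all, namely MRPS21 (−0.85 ± 0.07), MRPL33 (−0.81 ± 0.19), MRPS33 (−0.79 ± 0.16), MRPS35 (−0.67 ± 0.15), MRPS5 (−0.62 ± 0.10) and MRPL22 (−0.56 ± 0.23), and 5 and 2 were called without legacy T0 A or T0 B. edgeR on summed counts called 9 members lower with LGR (5.65% of all start sites) and 10 with legacy (4.96%). By single guides it called 5 lower with LGR (3.32% of all guides) and 10 lower and 4 higher with legacy (2.79% and 0.745% of all guides). For comparison, the cytosolic ribosome also had few calls at survival T0, with 1 of 90 start sites lower (median −0.21). It had 40 of 90 lower at T0 in the LGR dasatinib screen (median −1.34) and 51 of 90 in the legacy screen (median −1.52).

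During growth, guides against most members of the mitochondrial ribosome were depleted in both survival screens. At 1000-fold coverage 60 of 77 start sites were called lower and 0 higher, where 11.1% of all start sites were lower and 0.0933% higher, and the median phenotype was −0.82 against −0.05 for all start sites. At 100-fold coverage 59 of 77 were lower and 0 higher, where 10.1% of all were lower and 0.0344% higher, and the medians were −1.17 and −0.10. All calls had the same sign in every Tf sample. By single guides, edgeR called 188 of 378 member guides lower at 1000-fold (9.07% of all guides) and 101 at 100-fold (5.68% of all guides), or 27 and 31 there without T0 1 and T0 2 (3.07% and 3.04% of all guides). On summed counts it called 64 members lower at 1000-fold (15.6% of all start sites) and 51 at 100-fold (8.44%). Phenotypes of the called members ran from −2.28 to −0.41 at 1000-fold and from −2.89 to −0.67 at 100-fold.

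MRPS33, a small subunit protein without a bacterial counterpart, had the lowest phenotype of all members in both survival screens. Its guides summed to 41.8 CPM in the 1000-fold T0 and to 10.9, 11.7 and 11.7 in the Tf samples. At 100-fold they summed to 43.5 and 41.5 at T0 and to 9.86, 10.4, 5.73 and 7.61 at Tf. Every Tf sample was below every T0 sample. The phenotypes were −2.28 ± 0.12 (n = 3) and −2.89 ± 0.46 (n = 4), and the summed counts changed by −1.92 and −2.37 on the log2 scale (edgeR adjusted p = 1.30e-82 and 7.50e-11). All 5 guides, which lie on the plus strand at hg19 positions 140714704 to 140714758 of their PAMs, were called lower in both screens.

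The other strongly depleted members came from both subunits, apart from MRPS36, whose protein is assigned elsewhere. At 1000-fold they were MRPS21 (−1.96 ± 0.11), MRPS14 (−1.95 ± 0.07), MRPS36 (−1.70 ± 0.05), MRPL35 (−1.68 ± 0.04), MRPL12 (−1.68 ± 0.16), MRPL33 (−1.59 ± 0.08) and MRPL22 (−1.57 ± 0.08). At 100-fold they were MRPS21 (−2.30 ± 0.82), MRPS17 (−2.23 ± 0.39), MRPS5 (−2.21 ± 0.94), MRPS14 (−2.19 ± 0.17), MRPS35 (−2.07 ± 0.36), MRPL13 (−1.97 ± 0.60) and MRPS9 (−1.97 ± 0.53). MRPS14, MRPS17, MRPS21, MRPS5 and MRPS9 have counterparts among the bacterial small subunit proteins, MRPL12 is the stalk protein that recruits translation factors, and MRPL22 lines the exit tunnel. Samples differed more at 100-fold. The phenotype of MRPS5 was −1.52 and −1.31 in Tf 1 and 2 but −2.72 and −3.27 in Tf 3 and 4, the same 2 samples in which the summed member share was lowest.

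Guides of one gene differed in whether they were called. At 1000-fold, 9 start sites had all 5 guides called lower by edgeR, 14 had 4, 10 had 3, 23 had 2, 11 had 1 and 10 had none. At 100-fold the same guides gave 2 start sites with all 5 called and 26 with none. A missing call does not show that a guide had no effect, and guides were not tested against each other. Of all guides, 9.07% were called lower at 1000-fold and 5.68% at 100-fold. Calls per start site were counted for members only, so the spread is not shown to be particular to them. For MRPS21 the 4 minus-strand guides (hg19 positions 150266297 to 150266334) had log2 changes from −2.07 to −1.22 at 1000-fold, while the plus-strand guide at 150266286 had 0.02, and it also stayed at 0.09, 0.27 and −0.06 in the 100-fold, LGR DMSO and legacy DMSO comparisons. The call for MRPS36 rested mostly on the guide at 68513602, with −3.50, −3.43, −3.34 and −2.65 in the same 4 comparisons, while its guide at 68513837 had 0.27, 0.35, 0.04 and 0.10.

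The DMSO cultures of the dasatinib screens also lost most member guides. Between T0 and DMSO, 49 of 77 start sites were called lower with the LGR library, where 6.39% of all were lower, and 62 of 77 with the legacy library, where 8.35% were lower. The median phenotypes were −1.92 and −2.24, against −0.10 and −0.12 for all start sites. edgeR on summed counts called 63 members lower in each library (9.68% and 9.67% of all start sites), and 192 and 219 of 378 single guides (7.42% and 6.88% of all guides). Without LGR T0 A and T0 B the LGR guides called were 105 and 116 (3.28% and 3.34% of all guides). Phenotypes of the called members ran from −6.87 to −1.23 with LGR and from −6.41 to −1.04 with legacy. Sampling times differ from those of the survival screens, so the sizes are given side by side and were not compared.

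MRPS33 guides summed to 30.4 and 29.4 CPM at LGR T0 and to 1.20 and 0.17 in DMSO, and to 26.0 and 30.4 at legacy T0 and 2.52 and 1.63 in DMSO. Its phenotypes were −6.87 ± 0.04 and −5.09 ± 0.35 (n = 2 each). With the LGR library 2 of its guides had 0 counts in both DMSO samples and 0 was set to 1, so that value and its small SD depend on this floor. MRPS17 went from 33.2 and 29.9 CPM at LGR T0 to 1.45 and 2.66, and from 53.6 and 44.4 at legacy T0 to 3.15 and 2.44. Its phenotypes were −5.23 ± 0.47 and −6.41 ± 0.86.

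The other largest changes in LGR DMSO were those of MRPS21 (−5.43 ± 0.83), MRPS9 (−5.11 ± 0.32), MRPL39 (−4.97 ± 0.59), MRPL33 (−4.68 ± 0.69), MRPS23 (−4.59 ± 0.27) and MRPL35 (−4.45 ± 0.48). In legacy DMSO they were MRPL22 (−5.60 ± 0.39), MRPS21 (−5.42 ± 0.15), MRPL39 (−5.04 ± 0.80), MRPL33 (−5.02 ± 0.22), MRPS9 (−5.01 ± 0.27) and MRPS14 (−4.92 ± 0.47). MRPL39 and MRPS23 are proteins that mitochondria added to the large and the small subunit. Across the 77 start sites, LGR and legacy DMSO phenotypes had a Pearson r of 0.908, and the 1000-fold and 100-fold survival phenotypes 0.931. These screens share the guides' designs, and the survival screens also the library.

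Over the 4 growth comparisons (the 2 survival screens and DMSO in the 2 libraries), 46 of 77 start sites were called lower in all 4 (5.31% of all start sites), 8 in 3, 9 in 2, 4 in 1 and 10 in none. The small subunit had 23 of 26 start sites lower at 1000-fold, 22 at 100-fold, 21 in LGR DMSO and 22 in legacy DMSO, with medians of −0.90, −1.35, −2.33 and −2.38. The large subunit had 36, 36, 27 and 39 of 50, with medians of −0.76, −1.05, −1.81 and −1.94. All 4 comparisons called 13 of 16 bacterial-type and 7 of 10 mitochondria-specific small subunit start sites, and 18 of 31 and 7 of 19 for the large subunit. The subunits were not tested against each other.

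Within the large subunit, the 3 proteins of the stalk, which binds translation factors, were lower in 2, 3, 3 and 2 of the 4 comparisons in the order above. MRPL12 and MRPL10 were lower in each, and MRPL11 was lower at 100-fold (−1.05 ± 0.30) and in LGR DMSO. Of 6 proteins at the rim of the exit tunnel, 3, 3, 2 and 3 were lower. MRPL17 and MRPL22 were lower in each comparison and MRPL24 in every one except LGR DMSO. MRPL23, MRPL45 and MRPL47 were not called lower by the gene score in any comparison, and MRPL45 is thought to hold the ribosome to the inner membrane. Of 6 proteins of the central protuberance, which faces the small subunit, 4, 4, 2 and 4 were lower. MRPL18 and MRPL46 were lower in each, MRPL48 and MRPL55 in all except LGR DMSO, and MRPL38 and MRPL40 in none.

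Symbols do not always give the place of a protein. MRPS18A and MRPS30 are named for the small subunit but sit in the large one. MRPS18A was lower in all 4 comparisons (−0.78 ± 0.05, −1.13 ± 0.20, −2.80 ± 0.30 and −2.32 ± 0.31). MRPS30 was called by the gene score only in DMSO (−2.33 ± 0.42 and −2.05 ± 0.20), with values of −0.45 ± 0.08 and −0.61 ± 0.20 in the survival screens. MRPS36, also named KGD4, belongs to the 2-oxoglutarate dehydrogenase complex of the citric acid cycle. Its phenotype was −1.70 ± 0.05, −1.88 ± 0.16, −1.89 ± 0.31 and −1.80 ± 0.21, called in all 4. MRPS36 thus had values of similar size in all 4 comparisons, where the member medians ranged from −0.82 to −2.24.

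Of the start sites, 8 had no gene score call in any of the 9 comparisons. They were MRPL4, MRPL23, MRPL28, MRPL38, MRPL40, MRPL45, MRPL47 and MRPS2. MRPL28 guides summed to 38.7 CPM at the 1000-fold T0 and to 41.5, 41.2 and 40.4 at Tf, and to 36.4 and 40.0 at the 100-fold T0 and 42.1, 40.8, 39.8 and 50.4 at Tf. In the legacy dasatinib screen they summed to 44.9 and 50.2 at T0 and to 47.5 and 50.1 in DMSO. T0 and final samples overlapped at 100-fold and in legacy, and at 1000-fold the single T0 was below every Tf. Others among them had larger negative values that missed the score, such as MRPL4 (−1.10) and MRPL38 (−1.29) in legacy DMSO. Whether these guides lowered their targets was not measured, so a missing call is no statement about the protein.

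The change in counts summed over a gene's guides was compared between libraries. Such sums weigh each guide by its abundance, which differs between the libraries. In edgeR's interaction of library with DMSO against T0, 4 of 77 start sites passed, against 0.378% lower and 0.275% higher of all start sites, and 25 of 77 had an unadjusted p under 0.05 (2106 of 20374 over all start sites). MRPL10 went from 37.6 and 43.9 CPM to 12.5 and 16.5 with LGR, and from 45.1 and 47.8 to 7.27 and 6.74 with legacy. The difference, legacy minus LGR, was −1.28 ± 0.23 (SE) on the log2 scale (edgeR adjusted p = 0.00122). The other differences were −1.04 ± 0.23 for MRPL9, −1.01 ± 0.21 for MRPS15 and 0.97 ± 0.25 for MRPL13. On single guides the interaction passed for none of the members. The gene phenotype of MRPL9, from its strongest guides, was −3.29 with LGR and −3.36 with legacy. Without LGR T0 A or legacy T0 B none passed, and without LGR DMSO 1 there were 7. Between 100-fold and 1000-fold Tf against T0, edgeR passed 0 of 77 (0.0% of all start sites). An unadjusted p under 0.05 was found for 3 of 77, and for 240 of 20374 over all start sites. Differences were negative for 63 of 77 (median −0.15), and for 9812 of 20374 over all start sites (median 0.005).

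Against DMSO, the median of the members was lower in dasatinib, but few single members were called. No member was called in both libraries. The share of all start sites called in both is not given here, and a start site with no scored guide in 1 library could not be. The median phenotype was −0.63 over 68 scored start sites with LGR and −0.50 over 74 with legacy, against 0.02 and −0.01 for all start sites. The remaining 9 and 3 had no guide with 50 counts in either arm. On summed counts, which have no such filter on guides, the medians over all 77 were −0.50 and −0.33, against 0.01 for all start sites in both. With LGR 6 members were called lower and 0 higher, where 0.845% of all start sites were lower and 1.6% higher. With legacy 5 were lower and 2 higher, where 1.08% were lower and 1.61% higher. edgeR called 0 of 361 member guides with LGR (0.00393% of all guides lower) and 0 of 357 with legacy (0.0349%), and 43 and 40 had an unadjusted p under 0.05. DESeq2 called 2 and 1, and its share of all guides is not given here. Without LGR dasatinib 1 edgeR called 42 of 351 member guides lower and 12 higher (3.42%), and of all 101433 guides 9203 lower (9.07%) and 12167 higher. Without LGR dasatinib 2 the shares of member guides were 9.86% lower and 4.23% higher, against 8.51% and 11.7% of all. Without legacy dasatinib 1 and 2 they were 7.74% and 8.26% lower and 3.72% and 4.27% higher, against 6.19% and 6.09% lower and 9.71% and 9.47% higher of all. The count of calls thus rose across the whole library when a dasatinib sample was left out. By the gene score, 0 members were called without LGR DMSO 1, 2 without LGR dasatinib 2, and 1 to 4 with any legacy sample left out. Of all targeting guides, 11987 of 99811 and 12600 of 98442 had an unadjusted p under 0.05. DMSO is the final sample of one comparison and the base of the next, so no relation between growth and drug values was computed.

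The gene score here takes guides that reached 50 counts in either arm, and a guide that passes through 1 arm alone is drawn toward the side of that arm. Of the 18 guides behind the LGR calls, 13 passed through DMSO alone. Of the 6 behind the lower legacy calls, 4 did, and both guides behind the higher calls passed through dasatinib alone. The calls are therefore given as descriptions. In simulated data the share of false calls by the gene score in LGR dasatinib was also above its nominal rate. With guides chosen instead by 50 counts at T0, samples outside this comparison, all 77 members were scored, with medians of −0.88 in LGR and −0.64 in legacy against 0.03 and 0.00 for all start sites. These medians also carry the pull of few counts below 0 described above. In dasatinib the median member guide had 28.5 to 36 counts and the median non-targeting guide 118 to 154. How much of the medians comes from this pull was not tested. This setting, added after seeing the data, called 6 members lower and 1 higher with LGR (0.629% and 1.45% of all start sites) and 12 lower and 1 higher with legacy (1.62% and 2.56%). It shared MRPL1 and MRPL43 with the LGR calls below and MRPL30 P2 with the legacy calls.

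With LGR the called members were MRPS11 (−1.89 ± 1.498, 1 guide scored), MRPS27 (−1.87 ± 1.31, 1 guide), MRPS10 (−1.45 ± 0.46, 4 guides), MRPL1 (−1.30 ± 0.35, 5 guides), MRPL43 (−1.29 ± 0.33, 2 guides) and MRPS22 (−1.01 ± 0.13, 5 guides). MRPL1 and MRPS22 were not called lower by the gene score in any growth comparison. MRPL1, at the side of the large subunit where transfer RNA leaves, had 34.8 and 31.1 CPM in LGR DMSO and 13.7 and 14.2 in dasatinib. In legacy it had 34.8 and 33.6 in DMSO and 29.5 and 18.1 in dasatinib. Dasatinib samples were lower than DMSO samples in both libraries, but the legacy phenotype of −1.15 ± 0.93 was not called. MRPS22, a mitochondria-specific small subunit protein, had 28.9 and 28.7 in LGR DMSO and 14.5 and 14.8 in dasatinib, and 51.9 and 43.3 against 38.6 and 26.2 in legacy (−1.06 ± 0.50, not called). On summed counts edgeR gave adjusted p = 0.0645 for MRPL1 and 0.128 for MRPS22 with LGR. The 5 guides of MRPL1 had log2 changes from −1.61 to −0.69 with LGR and from −1.41 to −0.10 with legacy.

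With legacy the members called lower were MRPL9 (−2.90 ± 2.81, 1 guide), the P2 start site of MRPL30 (−2.22 ± 0.66, 1 guide), MRPL33 (−1.59 ± 0.36, 1 guide), MRPS14 (−1.57 ± 0.25, 1 guide) and MRPL34 (−1.25 ± 0.35, 2 guides). MRPL22 (1.76 ± 1.20) and MRPS9 (1.67 ± 0.25) were called higher on 1 guide each. The MRPL22 guide had 32 and 18 counts in DMSO and 126 and 43 in dasatinib, and the MRPS9 guide 33 and 26 against 87 and 76. Neither guide reached 50 in DMSO, so each was scored only through a high count in dasatinib, and with guides of 10 or more counts the MRPS9 value turned to −0.027. On summed counts with LGR, 19 members had an edgeR unadjusted p under 0.05, against 3022 of 20373 over all start sites. After adjustment edgeR called 0 members lower with LGR (0.167% of all start sites) and 1 with legacy (0.383%). This was MRPL30 P2, at −2.66 ± 0.53 (SE, adjusted p = 0.0363), from 6.70 and 4.71 CPM in DMSO to 0.76 and 0.97 in dasatinib. With LGR it had 5.84 and 4.34 in DMSO and 1.12 and 2.16 in dasatinib and was not scored. The single scored guide of MRPL9 had 89 and 55 counts in DMSO and 2 and 35 in dasatinib. Among members with 4 or 5 guides scored, 3 of 29 were called with LGR and 0 of 27 with legacy. The interaction of library with dasatinib passed for 0 of 77 members by edgeR (0.00491% of all start sites in each direction). An unadjusted p under 0.05 was found for 11 members, and for 2273 of 20374 over all start sites.

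Some members share a promoter region with a gene transcribed the other way, so that a guide may act on either. In the RefSeq annotation, 22 members have a library gene on the opposite strand whose start lies within 1000 bases. Of these, 14 were lower in all 4 growth comparisons. Their neighbours were also lower in all 4 for 5 of the 14, as in MRPL18 with the chaperonin subunit TCP1, MRPL51 with the condensin subunit NCAPD2 and the pair MRPL46 and MRPS11. The neighbour was lower in none for 6, as in MRPL27 with EME1, MRPL34 with ABHD8 and MRPL37 with CYB5RL. The pair MRPL46 and MRPS11 is counted from both sides. The closest guides of MRPL51 and NCAPD2 lie 3 bases apart in hg19, and all 5 MRPL51 guides lie within 300 bases of a guide for NCAPD2. For MRPL18 with TCP1 and for MRPL46 with MRPS11 the closest guides lie 328 and 347 bases apart. They lie 101, 2458 and 211 bases apart for MRPL27, MRPL34 and MRPL37 with the neighbours named. Which of both genes accounts for such values was not tested.

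Other parts of mitochondrial translation were also depleted during growth, in smaller shares. Of 7 mitoribosome proteins under other symbols, 5, 4, 1 and 3 were lower in the 4 growth comparisons, including PTCD3 (−1.23 ± 0.09 at 1000-fold) and MRP63 (−1.14 ± 0.03). Of 25 start sites of assembly factors and ribosomal RNA enzymes, 9, 8, 8 and 11 were lower. DHX30, an RNA helicase of assembly, had −1.56 ± 0.18, −1.95 ± 0.08, −4.74 ± 0.58 and −4.01 ± 0.35 at its P1 start site. Of 14 translation factors, 6, 6, 5 and 6 were lower, led by OXA1L, which inserts new chains into the inner membrane (−2.99 ± 0.17, −3.54 ± 0.41, −5.26 ± 0.65 and −3.68 ± 0.55), and with TUFM, the elongation factor that delivers transfer RNA (−1.36 ± 0.03 at 1000-fold).

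Lists outside mitochondrial translation set the scale. Complex I, which holds subunits that the mitochondrial ribosome makes, had 15, 19, 6 and 10 of 39 start sites lower during growth, but 19 of 38 lower under dasatinib with LGR (median −1.48) and 15 of 39 with legacy (median −1.24). The ribosome members had 6 of 68 and 5 of 74 lower there. The cytosolic ribosome had 73 of 90, 68 of 90, 42 of 89 and 51 of 87 lower during growth with medians of −2.94, −3.68, −1.46 and −1.67, and 0 lower and 3 higher under dasatinib in each library. The median of the mitochondrial ribosome was thus nearer 0 than that of the cytosolic ribosome in the survival screens and farther from 0 in DMSO. The DMSO values count change from T0 alone, when the cytosolic ribosome was already lower in these screens (medians of −1.34 and −1.52, against −0.18 and −0.13 for the members). No list was tested against another.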

How the data were processed

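Each of the 24 samples used here is a table of raw read counts per guide. The authors counted reads with an iteration of ScreenProcessing, and per the labels and processing notes bcl2fastq was used and hg19 is named, with versions not given in the sources used here. The deposited counts were neither normalized nor pooled. The LGR plasmid was mapped by its title, since one of its labels names the activation library. It was sequenced on another instrument than the screen samples, and LGR and legacy samples were amplified with different reverse primers, so plasmid comparisons and library differences also carry these steps. No pair of samples of a group agreed within counting noise.

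The gene score took guides whose mean count reached 50 in the starting or the final samples, set 0 to 1 and used an exact two-sided Mann-Whitney test and pseudo-genes of 5 non-targeting guides. Only about 375 pseudo-genes set the threshold. edgeR 4.0.16 (quasi-likelihood, TMM, Benjamini-Hochberg over all features, adjusted p of 0.05) tested guides and summed counts that reached 10 in some sample of the comparison, in R 4.3.3, with DESeq2 1.42.0 as an alternative. Python 3.11.15 (pandas 2.3.3, scipy 1.17.1) did the rest. The tests were run on simulated data, in which the gene score found most changed genes, and its share of false calls was above the nominal rate in LGR dasatinib and survival T0. The simulated samples had a fixed spread beyond counting noise, and all guides of a changed gene had the same change. The shares found may thus not hold for the screens.

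Members, lists and tests were chosen with earlier results of these data known, so no list is independent evidence. Named are the 8 called members of largest phenotype per growth comparison, all called in other comparisons or in library differences, members of the 3 places, those with no call, MRPS18A, MRPS30 and MRPS36, and up to 2 called genes per other list. The MRPL4 and MRPL38 values, the neighbours, the MRPS5 samples and the guides described singly were chosen after their values were seen. Guide sequences were not used here.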

Additional observations from a re-analysis of the deposited data

Results flagged for a closer look

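In the 100-fold survival screen, the phenotype of MRPL11, a stalk protein, was −1.50 in Tf 3 and between −0.93 and −0.87 in the other 3 Tf samples. The gap from this sample to the nearest was 0.906 of the range. MRPL11 was 1 of 43 members tested in this way, and chance flags about 1 in 20 groups.

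In 4 members the libraries differed in the change of summed counts from T0 to DMSO, by edgeR's interaction term (legacy minus LGR, log2). On single guides none passed. The differences were −1.28 for MRPL10 (adjusted p = 0.00122), −1.04 for MRPL9 (0.0131), −1.01 for MRPS15 (0.00613) and 0.97 for MRPL13 (0.046). For MRPL13 the summed guides went from 27.6 and 25.1 CPM to 5.54 and 6.37 with LGR and from 48.2 and 47.1 to 17.6 and 26.0 with legacy. The libraries also differ in cloning, guide abundance, primers and transduction, and these cannot be told apart.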

How the results depend on the processing

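Of 188 recomputed counts of members, 148 stayed within 1.5 times the main count and 40 moved. Of 525 values of named members, 424 kept direction and call, 100 lost the call and 1 reversed. That was MRPS9 in legacy dasatinib, −0.027 with guides of 10 or more counts. The LGR dasatinib gene score called 6 members, 16 with 10 or more counts, 2 with 100 or more, 2 with a Benjamini-Hochberg rule and 0 by edgeR on summed counts. The 7 legacy dasatinib calls became 2, 0 and 1 with 100 or more counts, the Benjamini-Hochberg rule and summed counts, and 13 with guides of 50 or more counts at T0, added after seeing the data. At LGR T0 against plasmid the 2 calls became 9 by summed counts and 4 with the mean of all guides, and the 6 legacy calls became 10 by summed counts. DESeq2 called 3 guides in place of 5 at LGR T0 against plasmid, and 2 and 1 in place of 0 in LGR and legacy dasatinib. The 4 library differences in DMSO were 0 on single guides. The recomputed counts in this section are of members alone. Shares of all start sites or guides are not set beside them, so a count may move with the whole library. The causes were not tested.

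Leaving out 1 sample at a time gave the following ranges of members called by the gene score: 49 to 60 at 1000-fold, 52 to 60 at 100-fold, 37 to 57 in LGR DMSO, 48 to 62 in legacy DMSO, 0 to 8 in LGR dasatinib (0 without LGR DMSO 1 and 2 without LGR dasatinib 2), 1 to 4 in legacy dasatinib, 0 to 1 and 2 to 5 at LGR and legacy T0 against plasmid, and 0 to 0 at survival T0. For guides they were 181 to 190, 27 to 101 (27 and 31 without T0 1 and T0 2), 105 to 221 (105 and 116 without T0 A and T0 B), 162 to 232, 0 to 54 (54 and 50 without dasatinib 1 and 2), 0 to 44 (40 and 44 likewise) and 3 to 5, with LGR and legacy T0 against plasmid not run, since 1 sample against 1 leaves no spread. A sample left alone in its arm was taken to vary like the others. Library differences ranged from 0 to 7 in DMSO and were 0 to 0 in dasatinib and between coverages. With the replicate block, guides called were 92 at 100-fold, 1 in LGR dasatinib and 0 in legacy dasatinib. Same-numbered samples deviated together with r of 0.002, 0.001 and 0.001, so the numbers were not used to pair them. The labels do not tie T0 to Tf samples, but the study's own tables set T0 and Tf samples of the lower coverage side by side in sets. By these sets, T0 1 with Tf 1 and 2 and T0 2 with Tf 3 and 4, r was 0.0. Tried after seeing the data, Tf 1 and 2 against T0 1 alone called 45 members and Tf 3 and 4 against T0 2 alone 58. Most dasatinib calls rest on 1 or 2 scored guides.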
